A study of Homo sapiens with 34 samples.

Results

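The genes described here are 10 regulators of the cardiac muscle programme: the myocyte enhancer factors MEF2A, MEF2B, MEF2C and MEF2D, the basic helix-loop-helix factors HAND1 and HAND2, the LIM homeodomain factor ISL1, the coactivator myocardin (MYOCD), its DNA-binding partner serum response factor (SRF), and the muscle methyltransferase SMYD1. They were taken by name from a table of 23189 genes, and where a gene had several RefSeq transcripts the one with the largest total read count stood for it. The list of genes uses no measured value, though the genes were chosen with earlier results of these data known. The choice of transcript does use the read counts, and all 10 genes had reads.

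These proteins act in a connected circuit. MEF2 factors and SRF are MADS-box proteins that bind short AT-rich motifs in front of muscle genes, MEF2 at the MEF2 box and SRF at the CArG box. Myocardin does not bind DNA itself but joins SRF on CArG boxes and turns on cardiac and smooth muscle genes. HAND1 and HAND2 pair with E proteins such as TCF3, TCF4 and TCF12 and are needed for growth of the ventricles. ISL1 marks the progenitors of the second heart field, and SMYD1 is a MEF2C target required for sarcomere assembly.

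RNA-seq was performed on H1 human embryonic stem cells that were driven toward cardiomyocytes (CMs) by activation and then inhibition of WNT signalling. Insulin was added after day 6 to maintain CMs, so every change from day 6 to day 10 also spans this change of medium. The study compared WT cells, which carried a lentiviral shRNA against GFP or an empty vector, with 3 lines that each carried 1 lentiviral shRNA, against NKX2-5, ZEB2 or ZNF503, all transcription factors of the developing heart. The question was which steps of CM formation need each factor. Cells were collected at days 0, 2, 6 and 10, in 15 groups of 2 libraries, with ZNF503 shRNA cells at day 10 not analysed here. The libraries at day 10 were replicates 3 and 4 for WT and ZEB2 shRNA cells and replicates 1 and 2 for NKX2-5 shRNA cells. All groups of the earlier days were replicates 1 and 2. A difference between these replicate sets cannot be told apart from the line where NKX2-5 shRNA cells are compared at day 10. Nor can it be told apart from time in the WT and ZEB2 shRNA steps to day 10. All lines come from 1 parental line and each gene was targeted by 1 shRNA, so an effect of the vector or of another target cannot be told apart from loss of the named gene. The labels call the libraries biological replicates without saying whether they were separate cultures, so the p-values measure the spread between these samples. RNA came from whole cultures, in which fewer cells of a type and less RNA per cell cannot be told apart.

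Total counts ran from 9189943 to 90814577 per library, and 3 counts, taken as the limit of detection, corresponded to 0.033 to 0.326 CPM, the normalized read count scaled to library size. The targeted transcripts were lowered to 1.30% (day 6) and 1.37% (day 10) of WT for NKX2-5, to 58.6% and 49.2% for ZEB2, and to 7.00% for ZNF503 at day 6. The paper reported a stronger knockdown of ZEB2 than this, measured by real-time PCR. Where ZEB2 shRNA cells are set beside the other lines, a weaker knockdown and a different role of the factor cannot be told apart. The 7 cardiomyocyte markers (TNNT2, TNNC1, MYH6, MYH7, MYL7, ACTN2, RYR2) summed to 8884 to 11211 CPM in WT cells at day 6, to 4717 to 5189 CPM in ZEB2 shRNA cells, to 241 to 297 CPM in ZNF503 shRNA cells and to 71.6 to 81.7 CPM in NKX2-5 shRNA cells. Pluripotency markers (4 genes) summed to 71.8 to 86.3 CPM in all day 6 libraries, against 2186 to 2206 CPM in WT cells at day 0. NKX2-5 shRNA replicate 2 at day 10 stood apart from replicate 1, with TNNT2 at 40.2 against 1.35 CPM, and values that moved by more than 1.5-fold or lost their call without it are given both ways.

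Promoter windows of the members (250 bases upstream of each start site, RefSeq, GRCh38.p14) were read for the motifs these factors bind, since several of them are known to act on each other. Windows were found for 9 of the 10 genes, 18 windows in all, and none for MYOCD. The 3 stretches below are shown because they hold a CArG box or a MEF2 box, found in 1 and 2 of the 18 windows and, on either strand, in 1.16% and 2.80% of all 35116 windows. Capitals mark the motif, the sequences run 5′ to 3′ on the strand of the gene, and SRF holds 2 CArG boxes in the 30 bases in front of its start site (chr6:43171239-43171268, plus strand), whereas the MEF2 boxes lie 23 bases before a start site of MEF2A (chr15:99565951-99565980, plus strand) and 175 bases before one of MEF2C (chr5:88824500-88824529, minus strand).
SRF: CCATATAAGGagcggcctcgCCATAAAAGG
MEF2A: ggcttgtctcCTAAAAATAGccccggtgtg
MEF2C: atattccataTTATTTTTAAggtgttctca
The E-box CANNTG, the motif of HAND and other helix-loop-helix dimers, occurred in 9 of the 18 windows of the members (7 of the 9 genes) and in 61.8% of all windows. Its form CACCTG, the core motif of ZEB2, is one of those matches and occurred in 3 of the 18 windows, of MEF2A, MEF2B and MEF2C, and in 17.5% of all windows. The NKX2-5 motif TNAAGTG was found in none of the members' windows and in 8.73% of all. The GATA motif AGATAA was found in 2 of the 18 windows (HAND2 and ISL1) and in 9.17% of all, and TATAAA in 1 of the 18 (SMYD1) and in 10.7% of all. The SMYD1 match lies 63 bases before the start site on the strand opposite to the gene. All these motifs were searched on either strand. A match describes the letters in the window and says nothing about binding in these cells.

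The course of the regulators in WT cells was examined first. Between days 0 and 2, 4 of the 10 genes passed the test (edgeR quasi-likelihood test, adjusted p < 0.05), 2 in each direction, where 44.1% of all genes passed. Between days 2 and 6, 9 of 10 rose, where 49.8% of all genes passed and 25.9% were higher. Between days 6 and 10, 3 rose and 3 fell, where 57.5% of all genes passed. Most of the group thus rose in the same interval. The counts of the intervals before and after it were near the share of all genes.

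MEF2A, the MEF2 gene with the broadest expression, was already at 71.3 and 62.8 CPM in WT cells at day 0 and at 67.5 and 56.9 CPM at day 2. It reached 336 and 265 CPM at day 6 and 424 and 495 CPM at day 10, with no overlap between the early and late days. The rise from day 2 to day 6 was 4.78-fold (log2 fold change 2.26 ± 0.15 SE, adjusted p = 1.02e-06), and that from day 6 to day 10 was 1.55-fold (0.63 ± 0.14, adjusted p = 0.00405). MEF2C, the first MEF2 gene of the heart tube, followed another course. It fell from 8.75 and 8.93 CPM at day 0 to 1.06 and 1.36 CPM at day 2 (log2 fold change −2.88 ± 0.27, adjusted p = 2.47e-05), climbed to 1113 and 804 CPM at day 6, and declined to 595 and 446 CPM at day 10. The climb was 809-fold (9.66 ± 0.27, adjusted p = 2.81e-09) and the decline 1.82-fold (−0.86 ± 0.17, adjusted p = 0.00165).

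MEF2D, a family member found in most cell types, moved late. It stayed at 8.10 to 9.94 CPM at days 0 and 2, rose 2.31-fold to 21.4 and 20.4 CPM at day 6 (adjusted p = 1.02e-04) and 3.52-fold more to 68.6 and 76.8 CPM at day 10 (1.82 ± 0.15, adjusted p = 7.93e-06). MEF2B stayed between 0.729 and 4.03 CPM in every WT library and passed no test between successive days. Its counts are uncertain because the annotated readthrough transcript BORCS8-MEF2B covers it on the same strand.

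Expressed per kb of transcript, which allows a rough comparison of levels between genes, the family changed its composition. The length is that of 1 annotated transcript, which may differ from the RefSeq transcript counted. The shares include MEF2B, whose counts are uncertain. MEF2A made up 78.8% ± 1.47 (SD, n = 2) of the 4 MEF2 genes in WT cells at day 0. At day 6 MEF2C made up 69.0% ± 1.73 and MEF2A 28.4%, and at day 10 MEF2C made up 42.5% ± 7.77 and MEF2A 49.1%. MEF2C held the largest part in both libraries at day 6, whereas at day 10 it exceeded MEF2A in WT replicate 3 and not in replicate 4.

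The HAND genes and ISL1 were near the limit of detection at the start. HAND1 was at 0.053 and 0.0521 CPM at day 0 and at 0.194 and 0.124 CPM at day 2, then reached 61.1 and 65.2 CPM at day 6 and 52.2 and 62.5 CPM at day 10. HAND2 was at 0.053 and 0.0521 CPM at day 0, at 0.258 and 0.247 CPM at day 2, at 115 and 94.1 CPM at day 6 and at 122 and 104 CPM at day 10. Both rose steeply between days 2 and 6, HAND1 by 8.50 ± 0.24 and HAND2 by 8.65 ± 0.23 on the log2 scale (adjusted p = 2.93e-09 and 2.17e-09), and neither passed the test between days 6 and 10. With few counts at day 2, these SEs understate the uncertainty of the rises. The rise of HAND2 from day 0 to day 2 (2.21 ± 0.62, adjusted p = 0.0152) rested on 2 counts in each day 0 library and was lost without WT day 0 replicate 1 (2.2) or 2 (2.18) or day 2 replicate 1 (2.16).

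ISL1 was already higher at day 2 and declined after day 6. Its levels were 0.398 and 0.104 CPM at day 0, 1.90 and 2.41 CPM at day 2, 187 and 147 CPM at day 6, and 65.3 and 64.2 CPM at day 10. Every pair of successive days was separated without overlap. ISL1 rose by 3.08 ± 0.41 from day 0 to day 2 (log2 scale, adjusted p = 2.19e-04), a value of 4.29 without day 0 replicate 1 and of 2.41 without replicate 2. It then rose 78.7-fold to day 6 (adjusted p = 2.22e-08) and fell by 2.55-fold to day 10 (−1.35 ± 0.19, adjusted p = 1.82e-04).

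MYOCD was detected in stem cells, at 1.01 and 1.72 CPM, was almost lost at day 2 with 0.129 and 0 CPM, and was then among the most strongly raised members, with 549 and 403 CPM at day 6 and 320 and 368 CPM at day 10. The loss at day 2 was −3.92 ± 0.68 on the log2 scale (adjusted p = 0.00113) and −8.18 without day 2 replicate 1. The following rise was 12.38 ± 0.40 (adjusted p = 5.92e-09) and 16.63 without that library, since few counts remained at day 2. With so few counts this SE understates the uncertainty of the rise. The change from day 6 to day 10 did not pass (−0.45, adjusted p = 0.0652), but passed without WT day 6 replicate 2 (−0.68) or day 10 replicate 4 (−0.57) and under 3 other settings (−0.59 to −0.47). SRF, in contrast, was present throughout, at 35.6 and 34.7 CPM at day 0, 29.1 and 31.5 CPM at day 2, 61.2 and 53.1 CPM at day 6 and 43.7 and 47.1 CPM at day 10. Its rise of 1.87-fold to day 6 (0.91 ± 0.12, adjusted p = 1.79e-04) was the smallest of the 9. Its fall to day 10 (−0.32 ± 0.12, adjusted p = 0.0494) was lost without WT day 6 replicate 1 (−0.22) or day 10 replicate 3 (−0.26).

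SMYD1 had 2 counts in all in the day 2 libraries of WT cells. It reached 336 and 257 CPM at day 6, a ratio of 6722 over day 2 with a 95% counting interval of 1861 to 55505, and 459 and 453 CPM at day 10. The rise from day 6 to day 10 (0.64 ± 0.19, adjusted p = 0.0147) was lost without WT day 6 replicate 2 (0.44).

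**Figure D1:**
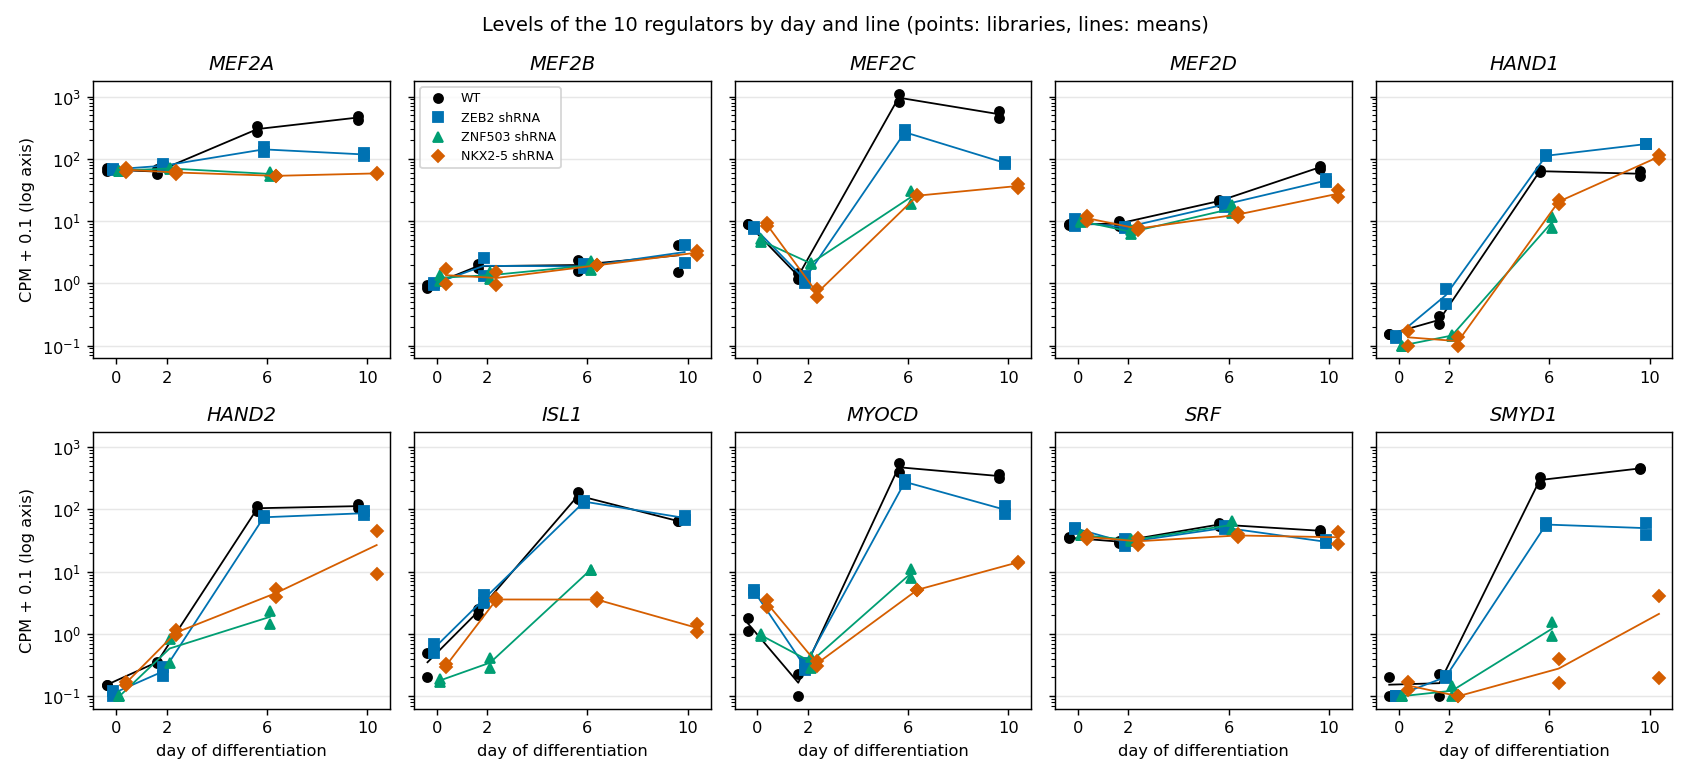
Level of each regulator in every library, as CPM plus a small constant on a log axis, against the day of differentiation. Points are libraries, lines join the means of 2, and the lines are set slightly apart around each day; WT levels of MEF2C, MYOCD and SMYD1 at day 6 (black) lie above those of all 3 shRNA lines.

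Differences between the lines were few in stem cells and at day 2. At day 0, where 7 of the 10 genes had enough counts, MYOCD rose in NKX2-5 shRNA cells (1 member, 15.9% of all genes passing), MYOCD and SRF rose in ZEB2 shRNA cells (2 members, 3.93% of all) and MEF2C fell in ZNF503 shRNA cells (1 member, 7.53% of all). MYOCD was at 2.62 and 3.44 CPM in NKX2-5 shRNA cells and at 4.39 and 4.98 CPM in ZEB2 shRNA cells, against 1.01 and 1.72 CPM in WT cells. No library overlapped, and the folds were 2.19 (log2 1.13 ± 0.29, adjusted p = 0.0203) and 3.37 (1.75 ± 0.28, adjusted p = 0.00508). The first was lost without NKX2-5 shRNA replicate 2 (0.91) or WT replicate 1 (0.80), and the second without ZEB2 shRNA replicate 2 (1.66) or WT replicate 1 (1.42). MEF2C was at 5.08 and 4.44 CPM in ZNF503 shRNA cells against 8.75 and 8.93 CPM (−0.90 ± 0.16, adjusted p = 0.009), and SRF at 50.6 and 48.8 CPM in ZEB2 shRNA cells against 35.6 and 34.7 CPM (0.48 ± 0.11, adjusted p = 0.0273). Both calls were lost whenever any library of their groups was left out, with values from −1.0 to −0.80 and from 0.45 to 0.51.

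At day 2, 8 members could be tested. ISL1 fell in ZNF503 shRNA cells, to 0.312 and 0.181 CPM against 1.90 and 2.41 CPM in WT cells (7.88-fold, log2 −2.98 ± 0.37, adjusted p = 3.09e-05), the only member called there (26.9% of all genes). In NKX2-5 shRNA cells ISL1 was at 3.64 and 3.32 CPM and in ZEB2 shRNA cells at 4.06 and 3.02 CPM, neither different from WT by the test. These levels were above those of ZNF503 shRNA cells, by 3.67 ± 0.34 (adjusted p = 1.52e-06, 39.5% of all genes passing) and 3.68 ± 0.34 (adjusted p = 1.88e-06, 29.3% of all) on the log2 scale. Markers of early differentiation moved with it. The 4 pluripotency markers summed to 1508 to 1595 CPM in ZNF503 shRNA cells at day 2 against 922 to 941 CPM in WT cells (all 4 higher by the test), and the 4 mesoderm markers to 337 to 440 CPM against 718 to 769 CPM (all 4 lower). In NKX2-5 and ZEB2 shRNA cells the pluripotency markers summed to 1003 to 1098 CPM and the mesoderm markers to 613 to 758 CPM. Their part in the ISL1 difference was not tested. HAND2 was at 0.861 and 1.04 CPM in NKX2-5 shRNA cells against 0.258 and 0.247 CPM (1.85 ± 0.63, adjusted p = 0.0437, 26.7% of all genes), and this call was lost whenever any of the 4 libraries was left out, with values from 1.71 to 2.01. No member passed in ZEB2 shRNA cells, where 0.490% of all genes did. HAND1 had the largest difference there, at 0.357 and 0.724 CPM against 0.194 and 0.124 CPM (1.66, adjusted p = 0.503, and 1.05 without ZEB2 shRNA replicate 2).

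At day 6 the lines separated. In NKX2-5 shRNA cells 9 of the 10 regulators fell and none rose, where 49.1% of all genes passed and 24.7% were lower. In ZNF503 shRNA cells 7 fell and none rose (55.7% of all genes passed, 28.5% lower). In ZEB2 shRNA cells 4 fell and HAND1 rose (11.0% of all genes). The median log2 fold change of the 10 genes was −3.54 in NKX2-5, −3.36 in ZNF503 and −0.40 in ZEB2 shRNA cells, and the median of all genes lay between −0.03 and 0.01. The 3 comparisons use the same WT libraries, so they are given side by side and the lines were compared with each other directly further on. With the larger folds that the study required (8-fold at 1% FDR at days 6 and 10), 5 members passed in NKX2-5 shRNA cells at day 6 (4.71% of all genes), 5 in ZNF503 shRNA cells (3.91%) and 0 in ZEB2 shRNA cells (0.462%), and at day 10, 4 passed in NKX2-5 (7.31%) and 0 in ZEB2 shRNA cells (1.46%).

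The regulators moved together with markers of cell type. At day 6 the summed cardiomyocyte markers did not overlap between any 2 lines, as given above, and none of the 7 was at or under 3 counts in any group. The 6 endoderm and liver markers summed to 3134 to 3226 CPM in NKX2-5 shRNA cells and to 2354 to 2483 CPM in ZNF503 shRNA cells, against 324 to 657 CPM in WT and 300 to 428 CPM in ZEB2 shRNA cells. Mesoderm markers (4 genes) summed to 171 to 187 CPM in ZEB2 shRNA cells against 12.4 to 13.7 CPM in WT cells. By the test 1 of these 4 was higher in ZEB2 shRNA cells and the other 3 did not pass. Smooth muscle markers (6 genes) summed to 873 to 1199 CPM in WT cells, 662 to 858 CPM in ZNF503, 571 to 616 CPM in ZEB2 and 162 to 231 CPM in NKX2-5 shRNA cells. Endothelial markers (5 genes) summed to 464 to 545 CPM in WT, 420 to 439 CPM in ZEB2, 195 CPM in NKX2-5 and 121 to 161 CPM in ZNF503 shRNA cells. By the test 1, 3 and 3 of them were lower in ZEB2, NKX2-5 and ZNF503 shRNA cells. The same markers summed to 288 to 310 CPM in WT stem cells at day 0, with PECAM1 and EMCN at or under 3 counts. The 6 neural markers stayed at or under 2.25 CPM in every line at day 6. The part of these cell types in the results on the regulators was not tested.

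Among the MEF2 genes at day 6, MEF2C differed most. It was at 26 and 25 CPM in NKX2-5 shRNA cells and at 18.9 and 29.7 CPM in ZNF503 shRNA cells, against 1113 and 804 CPM in WT cells, falls of 37.9-fold (log2 −5.24 ± 0.23, adjusted p = 4.91e-09) and 39.5-fold (−5.31 ± 0.23, adjusted p = 6.64e-09). ZEB2 shRNA cells held 291 and 243 CPM, between the other lines and WT without overlap, a fall of 3.58-fold (−1.84 ± 0.20, adjusted p = 7.52e-05). MEF2A was at 53 and 53.2 CPM in NKX2-5 and at 52.8 and 61.2 CPM in ZNF503 shRNA cells, below the libraries of day 0 of those lines, against 336 and 265 CPM in WT cells (−2.51 ± 0.14 and −2.41 ± 0.14, adjusted p = 4.66e-08 and 9.33e-08). ZEB2 shRNA cells had 153 and 130 CPM (2.11-fold lower, adjusted p = 2.84e-04). MEF2D was at 13.6 and 11.7 CPM in NKX2-5 shRNA cells against 21.4 and 20.4 CPM (−0.73 ± 0.18, adjusted p = 0.00525), a call that was lost without NKX2-5 shRNA replicate 2 (−0.63), and it did not pass in the other lines. MEF2B was at 1.48 to 2.26 CPM in WT cells and at 1.54 to 2.15 CPM in the 3 shRNA lines, overlapping throughout, and passed no test.

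At day 10, 7 regulators fell and HAND1 rose in NKX2-5 shRNA cells (43.9% of all genes), and 4 fell and HAND1 rose in ZEB2 shRNA cells (18.2% of all genes). Other markers also differed there. The cardiomyocyte markers summed to 14831 to 18047 CPM in WT cells, to 4127 to 6063 CPM in ZEB2 shRNA cells and to 64.4 and 361 CPM in NKX2-5 shRNA cells. The 6 endoderm and liver markers summed to 27141 to 38805 CPM in NKX2-5, 6456 to 7824 CPM in ZEB2 shRNA and 1485 to 3621 CPM in WT cells. The 8 blood markers summed to 2040 to 2490 CPM in NKX2-5 shRNA cells against 16.9 to 96.4 CPM in WT cells and 11.0 to 14.6 CPM in ZEB2 shRNA cells. The 4 epicardial and fibroblast markers summed to 937 to 1884 CPM, 1244 to 1253 CPM and 312 to 369 CPM in NKX2-5 shRNA, ZEB2 shRNA and WT cells. COL1A1 made up most of the sum in NKX2-5 shRNA (932 and 1860 CPM) and WT cells (278 and 356 CPM). TBX18 was at 2.31 and 14.5 CPM in NKX2-5 shRNA cells against 29.0 and 10.0 CPM. By the test 1 of the 4 was higher in NKX2-5 shRNA cells, and 2 were higher and 1 lower in ZEB2 shRNA cells. Of the 5 endothelial markers, 4 were higher and 1 lower than in WT cells in NKX2-5 shRNA cells and 3 were higher in ZEB2 shRNA cells, with sums of 163 to 286 CPM, 375 to 448 CPM and 349 to 445 CPM in the NKX2-5 shRNA, ZEB2 shRNA and WT libraries. KDR made up most of the WT sum, at 413 and 340 CPM against 46.4 and 96.1 CPM in NKX2-5 shRNA cells. Pluripotency markers summed to 42.6 to 49.0 CPM, 27.8 to 31.6 CPM and 14.5 to 15 CPM in NKX2-5 shRNA, ZEB2 shRNA and WT cells. DPPA4 made up most of the sum in NKX2-5 shRNA (41.2 and 48.1 CPM) and WT cells (12.7 and 12.1 CPM). NANOG, POU5F1 and SOX2 were at or under 1.85 CPM there, each lower in both NKX2-5 shRNA libraries than in both WT libraries. Of 2 pluripotency markers tested, 1 was higher in each shRNA line. Mesoderm markers summed to 0.865 to 1.09 CPM, 13.4 to 15.6 CPM and 1.5 to 3.59 CPM in the same order. Of 3 tested, 1 was higher in ZEB2 shRNA cells and none passed in NKX2-5 shRNA cells. The part of these markers in the results was not tested. Without NKX2-5 shRNA replicate 2, 9 regulators passed in NKX2-5 shRNA cells, and with WT replicate 3 or 4 left out 6 or 7 did.

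MEF2C was at 38.6 and 34.4 CPM in NKX2-5 shRNA cells and at 88.7 and 82.0 CPM in ZEB2 shRNA cells at day 10, against 595 and 446 CPM in WT cells. The 3 lines did not overlap, with falls of 14.2-fold (−3.83 ± 0.23, adjusted p = 1.65e-04) and 6.09-fold (−2.61 ± 0.22, adjusted p = 0.00201). MEF2A was at 59.1 and 57.3 CPM in NKX2-5 and at 124 and 111 CPM in ZEB2 shRNA cells against 424 and 495 CPM (7.86-fold and 3.92-fold lower, adjusted p = 1.69e-04 and 0.00222). MEF2D was at 23.8 and 31.2 CPM in NKX2-5 shRNA cells against 68.6 and 76.8 CPM (2.63-fold lower, adjusted p = 0.00234). MEF2D was at 47.0 and 41.9 CPM in ZEB2 shRNA cells and did not pass. MEF2B was at 2.06 to 4.10 CPM in these lines and at 1.40 and 4.03 CPM in WT cells.

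Per kb of transcript, the share of MEF2C in the MEF2 family at day 6 was 55.2% in ZEB2, 21.3% in NKX2-5 and 18.9% in ZNF503 shRNA cells, and MEF2A made up 57.9% and 58.3% in the last 2. At day 10 MEF2C made up 27.7% in ZEB2 shRNA cells, with MEF2A at 49.6% and MEF2D at 17.7%, and 22.6% in NKX2-5 shRNA cells, with MEF2A at 47.0% and MEF2D at 20.9%. All shares are means of 2 libraries.

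**Figure D2:**
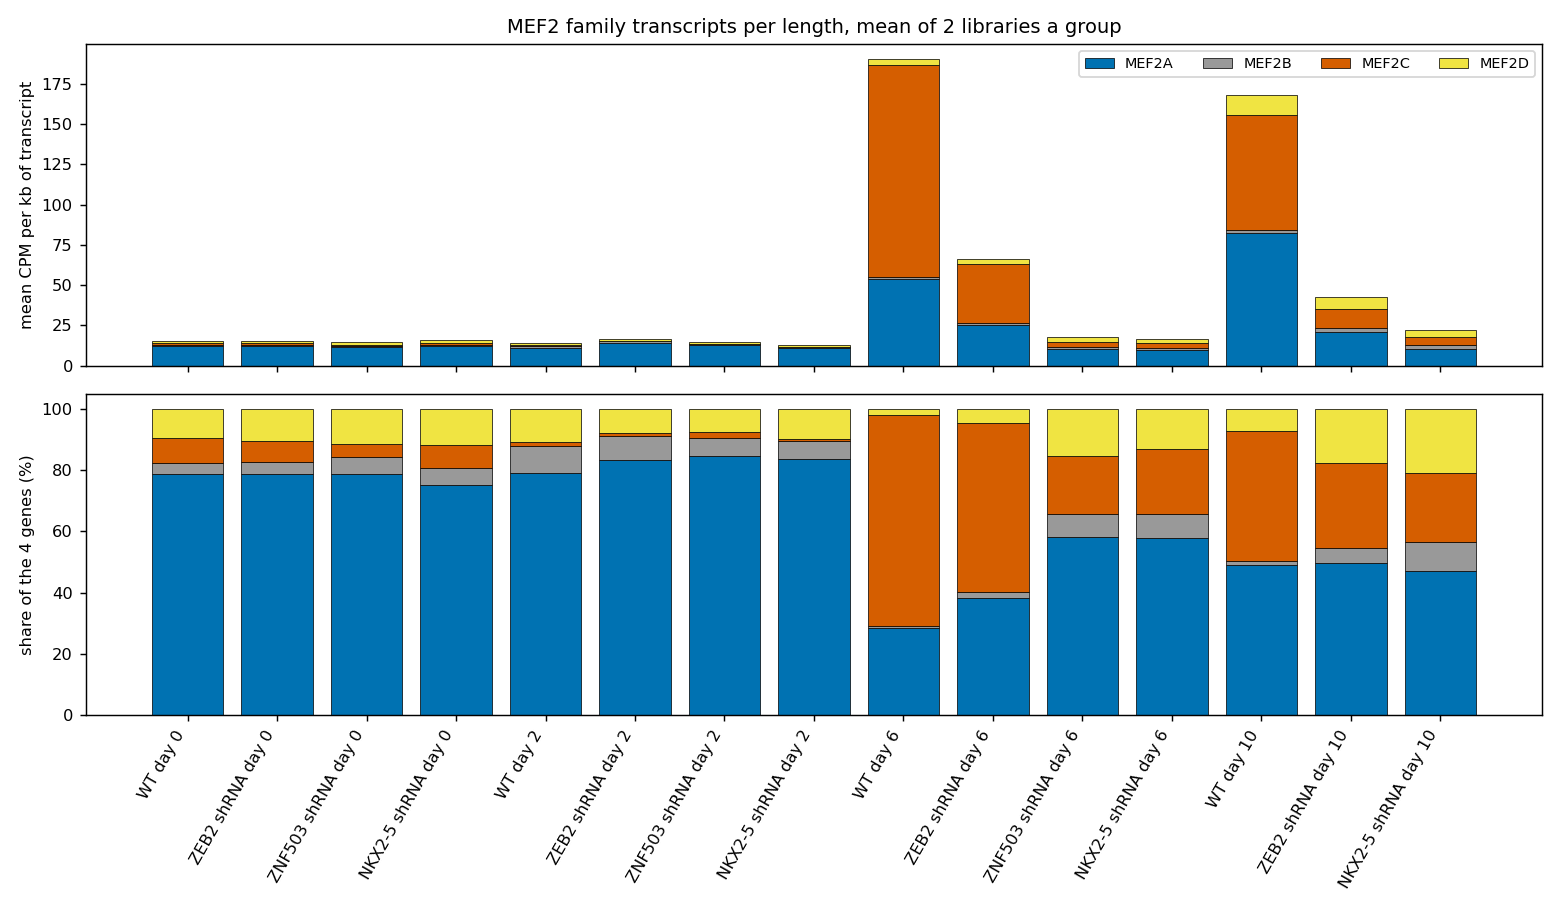
MEF2 family transcripts in the 15 groups, as mean CPM per kb of transcript (upper panel) and as each gene's share of the 4 (lower panel, %), means of 2 libraries. At day 6 MEF2C (orange) holds 69.0% of the family in WT and 55.2% in ZEB2 shRNA cells, against 21.3% and 18.9% in NKX2-5 and ZNF503 shRNA cells.

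HAND1 and HAND2 moved unequally in the shRNA lines. In ZEB2 shRNA cells HAND1 was at 110 and 113 CPM at day 6, above 61.1 and 65.2 CPM in WT cells (1.77-fold, log2 0.83 ± 0.16, adjusted p = 0.00537), and at 175 and 171 CPM at day 10, above 52.2 and 62.5 CPM (3.01-fold, 1.59 ± 0.19, adjusted p = 0.00355). The groups did not overlap on either day, and the day 6 call was lost without ZEB2 shRNA replicate 2 (0.80). HAND2 was at 77.1 and 72.2 CPM in the same cells at day 6 (−0.48 ± 0.17, adjusted p = 0.105) and at 81.1 and 92.6 CPM at day 10 (−0.38 ± 0.58, adjusted p = 0.688), below the WT libraries but not past the threshold. Without a filter on low counts the day 6 difference of HAND2 passed (−0.48). HAND1 was the only member that rose against WT in this line at days 6 and 10.

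In NKX2-5 shRNA cells both HAND genes were low at day 6. HAND1 was at 19 and 21.8 CPM, 3.11-fold below WT (−1.64 ± 0.17, adjusted p = 5.76e-06), and HAND2 at 5.12 and 3.80 CPM, 23.9-fold below WT (−4.58 ± 0.21, adjusted p = 5.85e-09). At day 10 HAND1 had reached 99.8 and 116 CPM, above both WT libraries (1.89-fold, 0.92 ± 0.19, adjusted p = 0.0075), a call that was lost without WT replicate 3 (0.80). HAND2 was at 8.94 and 44.4 CPM, below both WT libraries (122 and 104 CPM, −2.08 ± 0.61, adjusted p = 0.0283), but its libraries differed severalfold from each other. The difference was −3.64 without NKX2-5 shRNA replicate 2 and −1.34 without replicate 1, and the call was lost without WT replicate 3 (−1.95) or 4 (−2.18). In ZNF503 shRNA cells at day 6 HAND1 was at 11.7 and 7.55 CPM (6.67-fold below WT, adjusted p = 2.09e-07) and HAND2 at 1.33 and 2.23 CPM (57.8-fold, −5.85 ± 0.24, adjusted p = 4.29e-09).

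The ratio of HAND1 to HAND2 per kb of transcript was 1.00 ± 0.187 (SD, n = 2) in WT cells at day 6 and 0.842 ± 0.199 at day 10. It was 2.45 ± 0.164 and 3.27 ± 0.361 in ZEB2 shRNA cells, 7.70 ± 2.33 and 11.3 ± 9.88 in NKX2-5 shRNA cells (18.2 and 4.28 in the 2 day 10 libraries), and 9.93 ± 6.23 in ZNF503 shRNA cells at day 6. Every shRNA library of these days had a higher ratio than every WT library. With 2 libraries a group the ratio itself was given no test.

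**Figure D3:**
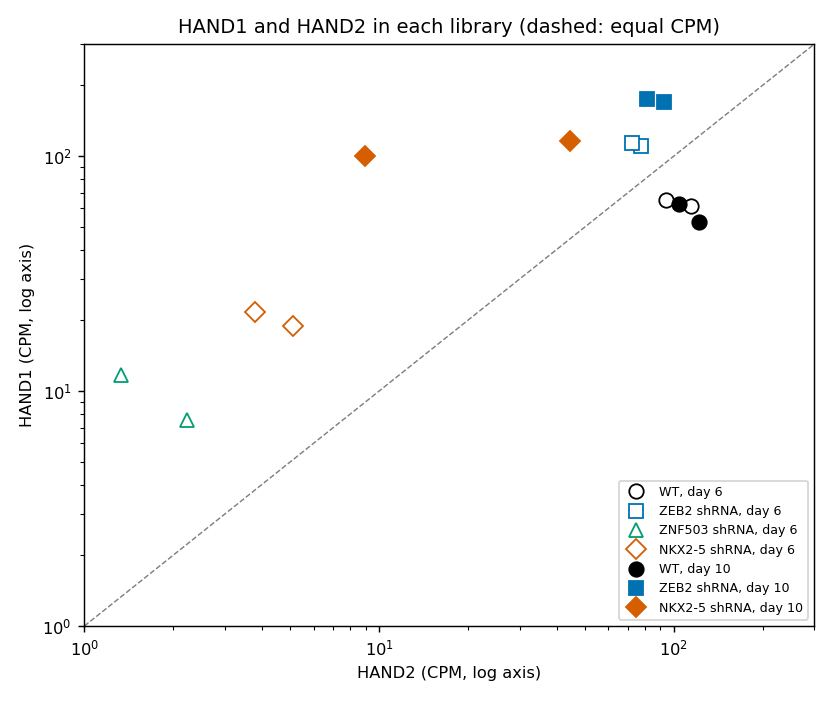
HAND1 against HAND2 in each library at day 6 (open symbols) and day 10 (filled symbols), both in CPM on log axes, with a dashed line of equal CPM. The WT libraries lie below the line and all shRNA libraries above it, with HAND1 at 99.8 and 116 CPM and HAND2 at 8.94 and 44.4 CPM in NKX2-5 shRNA cells at day 10.

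ISL1 set ZEB2 shRNA cells apart from the other lines. It was at 139 and 128 CPM in ZEB2 shRNA cells at day 6, just below 187 and 147 CPM in WT cells (−0.32 ± 0.13, adjusted p = 0.154), a difference that passed only without WT replicate 2 (−0.49). At day 10 it was at 68.2 and 77.4 CPM against 65.3 and 64.2 CPM (0.17 ± 0.20, adjusted p = 0.594). In NKX2-5 shRNA cells ISL1 stayed at 3.24 and 3.68 CPM at day 6, overlapping its own day 2 libraries, and was at 0.961 and 1.33 CPM at day 10. These levels were 48.0-fold and 55.9-fold below WT (−5.58 ± 0.17 and −5.80 ± 0.26, adjusted p = 3.08e-10 and 1.11e-04). In ZNF503 shRNA cells ISL1 was at 10.7 and 10.6 CPM at day 6, 15.8-fold below WT (−3.98 ± 0.15, adjusted p = 2.89e-09), after being the lowest of the 4 lines at day 2.

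MYOCD and SMYD1 fell in every line at days 6 and 10, and SRF passed in 1 comparison. MYOCD was at 5.01 and 5.03 CPM in NKX2-5 and at 11 and 7.72 CPM in ZNF503 shRNA cells at day 6, against 549 and 403 CPM in WT cells, falls of 95.3-fold (−6.58 ± 0.21, adjusted p = 5.98e-10) and 51.5-fold (−5.69 ± 0.21, adjusted p = 1.9e-09). ZEB2 shRNA libraries had 295 and 259 CPM, 1.71-fold below WT (−0.78 ± 0.16, adjusted p = 0.0082), a call that was lost without ZEB2 shRNA replicate 2 (−0.69) or WT replicate 1 (−0.53). At day 10 MYOCD was at 14.3 and 13.8 CPM in NKX2-5 and at 112 and 85.0 CPM in ZEB2 shRNA cells against 320 and 368 CPM (−4.61 ± 0.24 and −1.80 ± 0.21, adjusted p = 1.51e-04 and 0.00331), with the second call lost without ZEB2 shRNA replicate 4 (−1.61). The 3 lines kept their order at both days, WT highest and NKX2-5 shRNA lowest.

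SMYD1 showed the largest falls. At day 6 it was at 336 and 257 CPM in WT cells, at 60.7 and 53.5 CPM in ZEB2 shRNA cells (5.16-fold lower, −2.37 ± 0.19, adjusted p = 1.11e-05), at 1.43 and 0.812 CPM in ZNF503 shRNA cells (272-fold, −8.09 ± 0.28, adjusted p = 1.43e-09) and at 0.295 and 0.0601 CPM in NKX2-5 shRNA cells. The last difference was −10.97 ± 0.34 (adjusted p = 4.08e-10), and −12.19 or −9.96 without the first or the second NKX2-5 shRNA library. Few counts remained in these libraries, so this SE understates the uncertainty of the difference. At day 10 SMYD1 was at 459 and 453 CPM in WT cells, at 61.0 and 38.8 CPM in ZEB2 shRNA cells and at 0.0961 and 3.90 CPM in NKX2-5 shRNA cells. The groups did not overlap. The fall in ZEB2 shRNA cells (9.13-fold, −3.19 ± 0.83, adjusted p = 0.0379) was lost whenever any library of the pair was left out (−3.55 to −2.89) and by DESeq2 (−3.21). That in NKX2-5 shRNA cells (−7.83 ± 1.06, adjusted p = 0.00151) was −12.11 without NKX2-5 shRNA replicate 2 and −6.86 without replicate 1. SRF was at 36.4 and 39.7 CPM in NKX2-5 shRNA cells at day 6 against 61.2 and 53.1 CPM (−0.59 ± 0.16, adjusted p = 0.0093), a call lost without NKX2-5 shRNA replicate 1 (−0.53) or WT replicate 1 (−0.49), and it passed in no other line at day 6 or 10, where it ranged from 27.6 to 66.1 CPM.

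**Figure D4:**
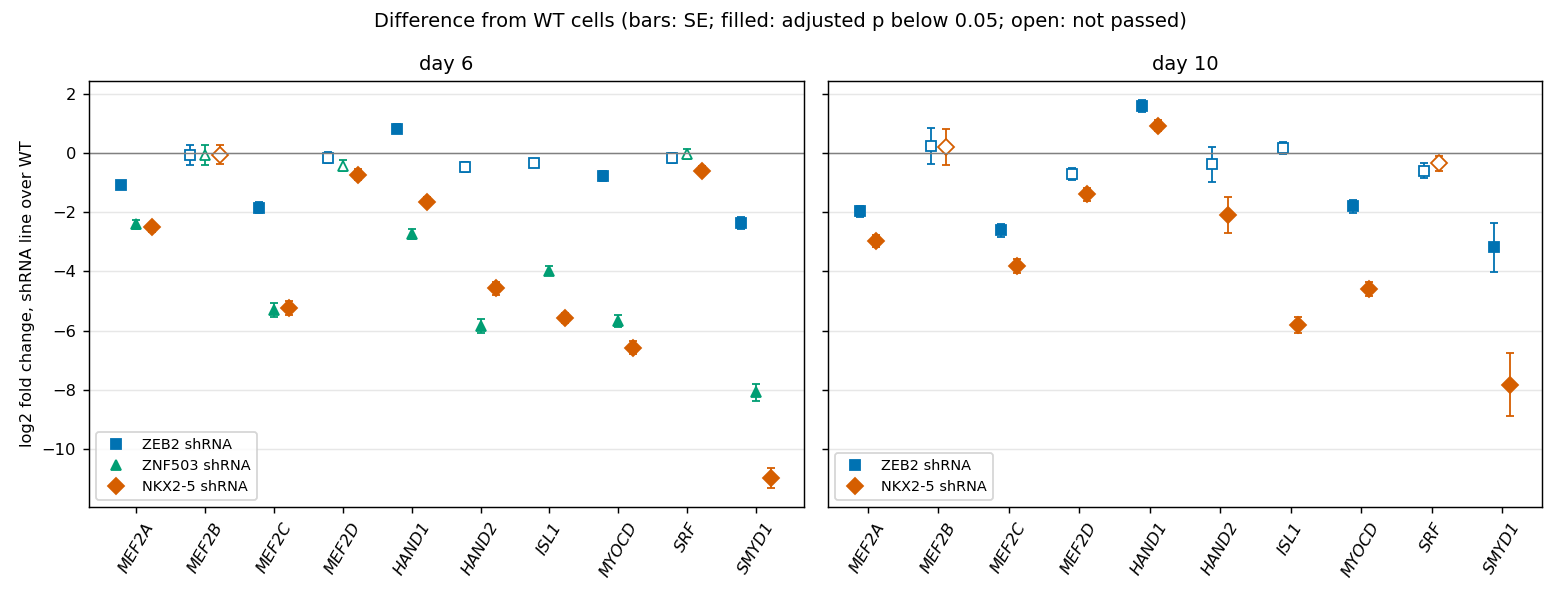
Log2 fold change of each regulator over WT cells at day 6 and day 10. Bars are 1 SE derived from the test, with filled symbols past an adjusted p of 0.05 and open symbols not. HAND1 is the only gene above 0 and past the threshold, and SMYD1 lies lowest in all lines on both days.

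Because the 3 comparisons share their WT libraries, the lines were also compared with each other. At day 6 all 7 regulators that differed between ZEB2 and ZNF503 shRNA cells were higher in ZEB2 shRNA cells (49.2% of all genes passed, 25.6% higher), and all 8 that differed between NKX2-5 and ZEB2 shRNA cells were lower in NKX2-5 shRNA cells (44.4% of all genes, 23.1% lower), though MEF2D (−0.57) was lost without NKX2-5 shRNA replicate 2 (−0.47) or ZEB2 shRNA replicate 1 (−0.43). The 2 lines with the lowest CM markers, NKX2-5 and ZNF503 shRNA, differed in 6 regulators (14.7% of all genes). HAND1 and HAND2 were higher in NKX2-5 shRNA cells, by 1.10 ± 0.18 (adjusted p = 0.00191) and 1.28 ± 0.25 (adjusted p = 0.00584) on the log2 scale. ISL1 was lower there by −1.60 ± 0.16 (adjusted p = 1.01e-04), MYOCD by −0.89 ± 0.20 (adjusted p = 0.0128), SMYD1 by −2.89 ± 0.55 (adjusted p = 0.00523) and SRF by −0.56 ± 0.16 (adjusted p = 0.04). Without ZNF503 shRNA replicate 1 the calls for HAND2 (0.97), MYOCD (−0.62), SMYD1 (−2.47) and SRF (−0.28) were lost, as was that for SMYD1 without NKX2-5 shRNA replicate 2 (−1.87). MYOCD (−0.89 in both cases) and SRF (−0.50 and −0.62) were also lost without either NKX2-5 shRNA library. MEF2A and MEF2C overlapped between these lines.

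At day 10, 6 regulators differed between NKX2-5 and ZEB2 shRNA cells, all lower in NKX2-5 shRNA cells (21.3% of all genes, 10.8% lower). ISL1 differed most, by −5.97 ± 0.26 (adjusted p = 3.22e-04), followed by SMYD1 (−4.64 ± 0.94, adjusted p = 0.0167, −8.93 without NKX2-5 shRNA replicate 2 and −3.68 without replicate 1), MYOCD (−2.81 ± 0.22), MEF2C (−1.22 ± 0.21), MEF2A (−1.0 ± 0.19) and HAND1 (−0.67 ± 0.19). Only ISL1 and MYOCD passed without ZEB2 shRNA replicate 3 or 4, under which SMYD1 was −4.28 or −4.93, MEF2C −1.17 or −1.29, MEF2A −0.93 or −1.09 and HAND1 −0.66 or −0.70. HAND1 was also lost without NKX2-5 shRNA replicate 1 (−0.57). At day 2, HAND2 was higher in NKX2-5 than in ZEB2 shRNA cells (2.59 ± 0.62, adjusted p = 0.00823, 23.2% of all genes), a call lost without ZEB2 shRNA replicate 1 (2.25) and in 1 fit of all libraries (2.57). HAND1, at 0.0352 and 0 CPM in NKX2-5 shRNA cells against 0.357 and 0.724 CPM, was lower there (adjusted p = 0.00348) on 2 counts in all, a ratio of 22.4 with a 95% counting interval of 6.19 to 185, and the call was lost without ZEB2 shRNA replicate 2 (−3.71 on the log2 scale).

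The steps within each line show where the courses parted. From day 0 to day 2, 4 regulators passed in NKX2-5 (2 up and 2 down, 28.3% of all genes), 8 in ZEB2 (5 up and 3 down, 56.9%) and 5 in ZNF503 shRNA cells (2 up and 3 down, 31.6%). Between days 2 and 6, 9 regulators rose in ZEB2 shRNA cells (48.7% of all genes, 24.6% higher), 8 rose and MEF2A fell in ZNF503 shRNA cells (65.9%), and 5 rose in NKX2-5 shRNA cells (MEF2C, MEF2D, HAND1, HAND2 and MYOCD; 47.9%, 23.7% higher). Of those, MEF2D (0.74 ± 0.23) and HAND2 (2.22 ± 0.69) were lost whenever any of the 4 libraries was left out, with values from 0.68 to 0.87 and from 2.05 to 2.45. HAND1 rose in all 4 lines at this step, by 7.65 ± 0.49 in ZNF503 and 7.64 ± 0.20 in ZEB2 shRNA cells on the log2 scale (8.27 without ZEB2 shRNA day 2 replicate 2), and from 2 counts in all in NKX2-5 shRNA cells, a ratio of 842 with a 95% counting interval of 233 to 6952. MEF2C also rose in all, by 5.34 ± 0.24 in NKX2-5, 3.60 ± 0.25 in ZNF503 and 7.96 ± 0.18 in ZEB2 shRNA cells. The step of MEF2A was 0.86 ± 0.11 in ZEB2 shRNA cells, whereas ZNF503 shRNA cells had −0.32 ± 0.12, the latter lost without either ZNF503 shRNA day 2 library (−0.31 and −0.34), without day 6 replicate 1 (−0.20) and by DESeq2 (−0.27). Between days 6 and 10, 4 regulators rose and ISL1 fell in NKX2-5 shRNA cells (49.1% of all genes; ISL1 −1.65, lost without day 6 replicate 2, −1.51), and 2 rose and 5 fell in ZEB2 shRNA cells (63.3%). In the latter MEF2C (−1.66 ± 0.12), MYOCD (−1.51 ± 0.13) and ISL1 (−0.89 ± 0.15) had the largest falls and MEF2D (1.23 ± 0.17) and HAND1 (0.61 ± 0.13) rose. Of the 4 rises in NKX2-5 shRNA cells (MEF2D, HAND1, HAND2 and MYOCD), that of HAND2 (2.53 ± 0.65) was 0.99 without day 10 replicate 2 and 3.31 without replicate 1 and was lost without day 6 replicate 1 (2.77) or 2 (2.37), and that of MEF2D (1.06 ± 0.23) was lost without day 6 replicate 2 (1.01).

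Whether these steps differed from those of WT cells was tested by an interaction term. From day 2 to day 6 the step was smaller than in WT cells for 5 regulators in NKX2-5 shRNA cells (46.0% of all genes differed), for 3 in ZEB2 shRNA cells (5.89%) and for 6 in ZNF503 shRNA cells (48.2%), and larger for none. MEF2A, MEF2C and ISL1 were among them in all lines. The counts in NKX2-5 and ZNF503 shRNA cells were near the share of all genes, which covers both directions. The share of all genes with a smaller step is not given. From day 6 to day 10 it was higher for 4 regulators in NKX2-5 shRNA cells (25.0%), among them both HAND genes (HAND2 by 2.51, and by 0.94 without NKX2-5 shRNA day 10 replicate 2). In ZEB2 shRNA cells it was higher for HAND1 and lower for MEF2A and MYOCD (6.29%).

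Over the 15 groups, the regulators fell into wide and narrow ranges. The highest group mean was 1597 times the lowest for MEF2C, and 11.0, 8.65, 3.90 and 1.94 times for MEF2D, MEF2A, MEF2B and SRF. HAND1, HAND2 and SMYD1 had a group with no reads, and MYOCD and ISL1 had a group with so few reads that no ratio is given. WT day 10 was the highest group for MEF2A, MEF2D, HAND2 and SMYD1, WT day 6 for MEF2C, ISL1, MYOCD and SRF, and ZEB2 shRNA day 10 for MEF2B and HAND1. When the groups were ordered by mean, the libraries of neighbouring groups overlapped in 2 of 14 pairs for MYOCD and 3 for MEF2C, in 4 or 5 for HAND2, HAND1 and ISL1, in 9 for MEF2A and MEF2D, and in 10, 11 and 13 for SMYD1, SRF and MEF2B. For HAND2 the order at the top was WT day 10 (113 CPM), WT day 6 (104 CPM) and ZEB2 shRNA day 10 (86.9 CPM), and the first pair overlapped.

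The genes most like each regulator were found by Pearson's r of log2(CPM + 1) over the 15 group means, among 14693 genes. All points share libraries and each day's cultures, so r describes these samples. SMYD1 ran closest to SMPX (0.998), SYNPO2L and CSRP3, genes of the sarcomere and Z-disc, MYOCD to MEF2C (0.979), PPARGC1A (0.978) and TNNT2 (0.977), and MEF2C to NCALD (0.980) and MYOCD. MEF2A ran closest to SRL (0.987), DPY19L2 and PPP1R3A, and MEF2D to MAGI2-AS3 (0.969), TSPAN32 and APOLD1. HAND1 had the matrix gene LUM (0.986), MAB21L2 and CPED1 as nearest genes, and HAND2 had DACT3 (0.982), CLSTN2 and GUCY1A1. ISL1 ran with its divergent neighbour ISL1-DT (0.964), RGS4 and MOK, and SRF with CELF1 (0.912), TJP1 and VEZT at lower values. Among the members themselves the closest pairs after MEF2C and MYOCD were MYOCD and SMYD1 (0.947), MEF2A and SMYD1 (0.945), HAND2 and MYOCD (0.943) and HAND1 and HAND2 (0.940), whereas SRF had r of 0.661 or less with every other member.

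In the GRCh37 annotation, the members and their neighbours lie as follows. HAND2 (chr4:174446120-174451380, minus strand, 2 exons) is overlapped at its start by the antisense RNA HAND2-AS1. ISL1 (chr5:50679282-50690564, plus strand, 6 exons) has ISL1-DT head to head just upstream, and MEF2C (chr5:88012934-88200074, minus strand, 11 exons) is overlapped by 2 antisense RNAs that are not in the count table. MYOCD (chr17:12569207-12672266, plus strand, 14 exons), SMYD1 (chr2:88367344-88412903, plus strand, 10 exons), SRF (chr6:43139007-43149244, plus strand, 7 exons) and HAND1 (chr5:153854532-153857787, minus strand, 2 exons) complete the strongly changing group with SRF. The library kit keeps the strand, but the setting used in counting is not given in the sources used here, so reads of a gene and an overlapping antisense RNA may not be told apart.

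HAND2-AS1 averaged 3.69 CPM in WT cells at day 6 and 9.77 CPM at day 10 (1.42 ± 0.31, adjusted p = 0.00449). It was at 0.169 CPM in NKX2-5 shRNA cells at day 6 (−4.60 ± 0.54, adjusted p = 3.17e-05) and at 2.50 CPM at day 10 (−1.96 ± 0.63, adjusted p = 0.0381), a difference of −3.39 without NKX2-5 shRNA replicate 2 and of −1.24 without replicate 1 that was lost without either WT library (−2.08 and −1.81), and had no reads in ZNF503 shRNA cells at day 6, at least 26.9-fold below WT against a floor of 3 counts per library. It did not pass in ZEB2 shRNA cells, as HAND2 did not. ISL1-DT was at 49.5 CPM in WT cells at day 6 and 67.6 CPM at day 10, a step that did not pass (0.46 ± 0.20, adjusted p = 0.076) while ISL1 fell. At day 6 NKX2-5 shRNA cells had 0.809, ZNF503 shRNA cells 2.24 and ZEB2 shRNA cells 31.7 CPM of it (−5.91 ± 0.23, −4.47 ± 0.21 and −0.64 ± 0.17, adjusted p = 1.98e-09, 1.21e-08 and 0.0294), with the last lost without any library but WT replicate 2 (−0.66 to −0.39).

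Finally, genes that work with the regulators or are known to lie downstream of them were examined. Of 18 partners and cofactors (E proteins, TWIST factors, class II histone deacetylases that hold MEF2 in check, myocardin-related factors, ETS partners of SRF, LIM-binding proteins and others), 17 could be tested. At day 6, 1 rose and 5 fell in NKX2-5 shRNA cells (median log2 fold change 0.10; 49.1% of all genes passed), 5 rose and 6 fell in ZNF503 shRNA cells (0.05; 55.7%), and 1 rose and 4 fell in ZEB2 shRNA cells (−0.11; 11.0%). At day 10, 2 rose and 4 fell in NKX2-5 shRNA cells (−0.31; 43.9%) and 1 rose and 1 fell in ZEB2 shRNA cells (−0.25; 18.2%). Without NKX2-5 shRNA replicate 2 at day 10, 2 rose and 8 fell.

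HDAC9, a repressor of MEF2 activity, had the largest fall of the partners that passed in every comparison but that of ZEB2 shRNA cells at day 6, where TWIST1 fell more. It averaged 131 CPM in WT cells at day 6, against 2.47 CPM in NKX2-5, 3.78 CPM in ZNF503 and 20.8 CPM in ZEB2 shRNA cells (−5.70 ± 0.23, −5.14 ± 0.23 and −2.64 ± 0.19). At day 10 it was at 231 CPM in WT, 9.51 CPM in NKX2-5 and 22.6 CPM in ZEB2 shRNA cells (−4.59 ± 0.26 and −3.35 ± 0.24). TWIST1, a helix-loop-helix relative of the HAND factors, averaged 13.2 CPM in WT cells at day 6 and fell by 4.96 in NKX2-5, by 3.14 in ZNF503 and by 2.99 in ZEB2 shRNA cells on the log2 scale. Rises were smaller. HDAC7 rose by 0.55 ± 0.21 in NKX2-5 and 1.07 ± 0.21 in ZNF503 shRNA cells, where CABIN1, another MEF2 repressor, rose by 0.96 ± 0.18, and the E protein gene TCF4 rose by 0.45 ± 0.12 in ZEB2 shRNA cells. At day 10 HDAC5 fell (−1.42 ± 0.20) and LDB2 (1.47 ± 0.42) and ELK1 (0.88 ± 0.24) rose in NKX2-5 shRNA cells, and HDAC4 rose in ZEB2 shRNA cells (0.86 ± 0.21). LDB2 was lost without NKX2-5 shRNA replicate 2 (0.79) or WT replicate 4 (1.12) and ELK1 without either WT library (0.93 and 0.84), while TWIST1, which had not passed at day 10 (−1.72), fell there without NKX2-5 shRNA replicate 2 (−3.83). The rise of HDAC4 was lost without any of the 4 libraries (0.80 to 0.94), that of TCF4 without any but WT replicate 2 (0.37 to 0.49), and that of HDAC7 in NKX2-5 shRNA cells without any but WT replicate 2 (0.30 to 0.56).

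Of 20 known targets, 13 fell and 1 rose in NKX2-5 shRNA cells at day 6 (median −3.09; 49.1% of all genes passed, 24.7% lower), 11 fell and 5 rose in ZNF503 shRNA cells (−1.99; 55.7%, 28.5% lower) and 10 fell and none rose in ZEB2 shRNA cells (−0.64; 11.0%). At day 10, 11 fell and 4 rose in NKX2-5 shRNA cells (−1.27; 43.9%), and 7 fell and 2 rose in ZEB2 shRNA cells (−0.79; 18.2%). The day 10 calls depended on single libraries. In NKX2-5 shRNA cells 14 fell and 4 rose without NKX2-5 shRNA replicate 2, and 6 fell and 3 rose without WT replicate 3 or 7 and 3 without WT replicate 4. In ZEB2 shRNA cells between 0 and 2 targets passed when any library of the pair was left out. CKM, the muscle creatine kinase and a classical MEF2 target, averaged 24.0 CPM in WT cells at day 6 and had no reads in NKX2-5 shRNA cells, at least 281-fold lower against the floor. Its log2 fold change was −6.12 in ZNF503 and −2.22 in ZEB2 shRNA cells, and at day 10 −8.59 in NKX2-5 and −2.99 in ZEB2 shRNA cells, all past the threshold. The day 10 value in NKX2-5 shRNA cells was −7.60 without replicate 1, and replicate 1 had no reads of it. The value in ZNF503 shRNA cells was −7.18 or −5.43 without its first or second library. HSPB7, a small heat shock protein of muscle, was at 58.7 CPM in WT cells and fell by 9.50 and 7.52 in NKX2-5 and ZNF503 shRNA cells at day 6. DES (desmin) fell by 2.35 in ZEB2 shRNA cells at day 6. XIRP2, which encodes an actin-binding protein of the intercalated disc, fell by 4.33 there at day 10 (−5.14 to −3.72 with 1 library left out). CASQ2 had no reads in NKX2-5 shRNA cells at day 10 against 1.51 CPM in WT cells, at least 10.6-fold lower, a call that was lost without WT replicate 3.

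Some targets rose. ACTA1, skeletal actin, rose to 136 CPM in ZNF503 shRNA cells against 24.3 CPM (2.47 ± 0.23). At day 10 MYLK and SMTN, genes of smooth muscle contraction that SRF controls, rose by 4.06 and 2.34 in NKX2-5 shRNA cells and by 1.95 and 1.58 in ZEB2 shRNA cells. MYLK was 4.68 in NKX2-5 and 2.57 in ZEB2 shRNA cells without WT replicate 3. The summed smooth muscle markers at day 10, of which SMTN is one, overlapped between the 3 lines, with 527 to 827 CPM in NKX2-5 shRNA, 586 to 702 CPM in ZEB2 shRNA and 675 to 939 CPM in WT cells. By the test 1 of these 6 markers was higher and 2 were lower in NKX2-5 shRNA cells, and 1 was higher in ZEB2 shRNA cells. In NKX2-5 shRNA cells LMOD1 was at 4.66 and 12.6 CPM against 37.7 and 43.6 CPM in WT cells. ACTA2 was at 114 and 240 CPM against 527 and 389 CPM, whereas TAGLN was at 305 and 477 CPM against 294 and 179 CPM.

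**Figure D5:**
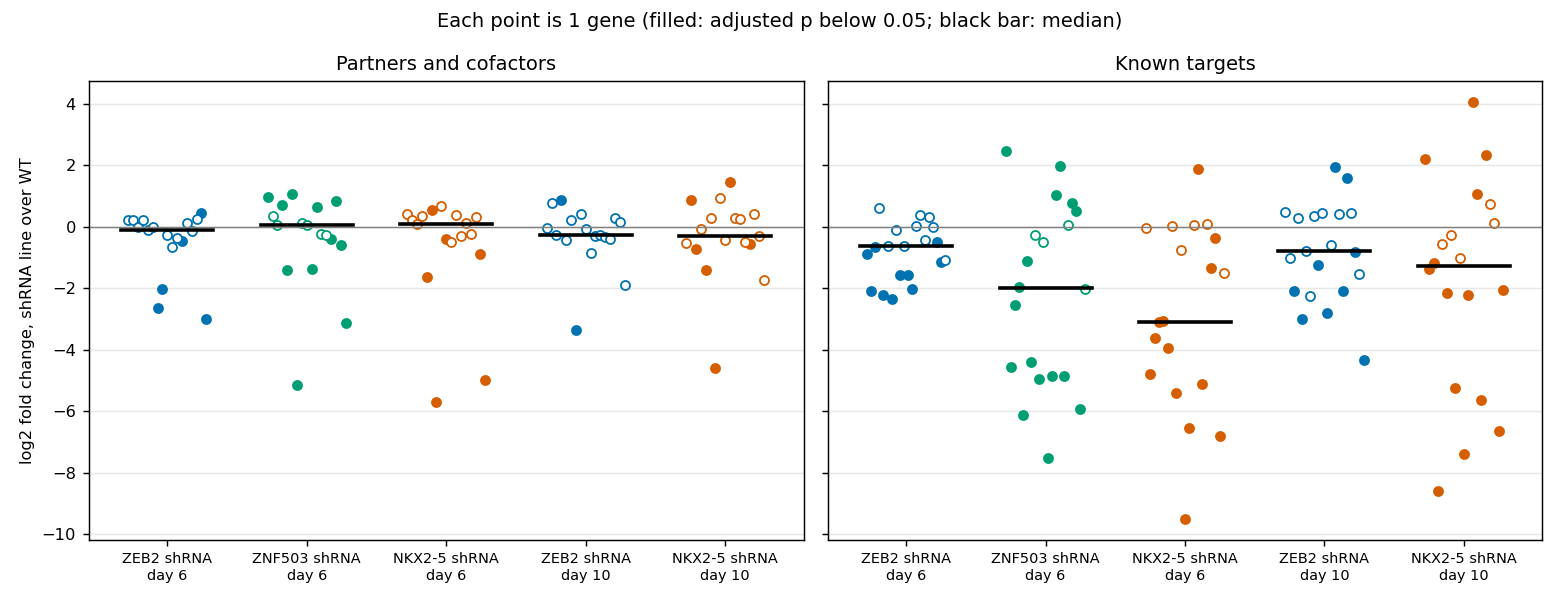
Log2 fold change over WT cells of the partners (left) and known targets (right) in each comparison at days 6 and 10, each point 1 gene, filled when past an adjusted p of 0.05, with a black bar at the list's median. Targets with no reads in NKX2-5 shRNA cells (CKM at day 6, CASQ2 at day 10) are not drawn but count in the median, which lies at −3.09 for the targets in NKX2-5 shRNA cells at day 6 and at 0.10 for the partners.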

How the data were processed

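RNA-seq was performed on 34 samples of H1 cells. Per the submitters' processing notes, TopHat2 2.0.14, Bowtie2 2.2.1.0 and SAMtools 0.1.19.0 were used with hg19, and the authors counted reads of each RefSeq gene. The deposited values are raw read counts, not normalized. In 4 day 10 columns (WT and ZEB2 shRNA replicates 1 and 2) the 42704 values did not match the 41627 accessions, and these columns were not used. Accessions were matched to symbols for 96.8% of rows, holding 97.1% of counts. The 30 libraries were normalized by TMM, and levels are CPM of effective library size. Levels per kb use the length of the canonical GENCODE transcript on GRCh37, which may differ from the RefSeq transcript counted.

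Groups of 1 day, or days of 1 line, were fitted together with edgeR 4.0.16 (R 4.3.3) on genes kept by filterByExpr, with quasi-likelihood tests, a prior count of 0.125 and Benjamini-Hochberg adjustment over all genes, and a call at 5% FDR. Changes between days were compared between lines by an interaction term. Alternatives were DESeq2 1.42.0, no TMM factors, no filter, 1 fit of all libraries, each library left out (88 fits), the replicate block, the second largest RefSeq row, and the study's thresholds (2-fold and 10% FDR at day 0, 4-fold and 10% at day 2, 8-fold and 1% at days 6 and 10). Intervals and floors cover counting error only. The tests were checked on simulated counts, 5 draws of 200 changed genes each. For NKX2-5 shRNA against WT they found 65.3% of 2-fold, 91.0% of 4-fold and 94.3% of 8-fold changes at day 6 (16443 genes) and 7.43%, 71.1% and 86.5% at day 10 (17004 genes).

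Named were the 10 members, the targeted genes, overlapping genes, for each comparison at days 6 and 10 up to 2 partners or targets with the largest rise and fall past the threshold at 1 CPM or more, and the 3 genes most like each member with a group mean of at least 5 CPM. Some marker genes were also named. Members and lists were chosen with earlier results of these data known. One gene of the target list is counted with the list but not reported here by name.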

Additional observations from a re-analysis of the deposited data

Results flagged for a closer look

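For 21 steps of the regulators, a test of the difference itself (interaction term, edgeR quasi-likelihood, adjusted p < 0.05 over all genes) separated the change over time in a shRNA line from that in WT cells. Values are log2 differences between the steps, shRNA line minus WT, with 1 SE.

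Between days 2 and 6 in NKX2-5 shRNA cells the difference was −8.07 ± 0.84 for MYOCD, −6.41 ± 0.52 for HAND2, −6.31 ± 0.27 for ISL1, −4.35 ± 0.48 for MEF2C and −2.44 ± 0.18 for MEF2A. Without WT day 2 replicate 1 the value for MYOCD was −12.76. In ZNF503 shRNA cells it was −7.81 ± 1.83 for SMYD1, −7.44 ± 0.69 for MYOCD, −6.32 ± 0.62 for HAND2, −6.02 ± 0.36 for MEF2C, −2.54 ± 0.18 for MEF2A and −1.06 ± 0.36 for ISL1. SMYD1 rested on few counts at day 2: it was lost without ZNF503 shRNA day 2 replicate 1 (−4.47) and was −6.34 or −11.61 without either WT day 2 library. MYOCD was −12.13 without WT day 2 replicate 1 and −6.74 without ZNF503 shRNA day 2 replicate 1, HAND2 was −7.34 without the latter, and ISL1 was lost without it (−0.46), without WT day 2 replicate 1 (−0.86) or without WT day 6 replicate 1 (−0.88). In ZEB2 shRNA cells the differences were smaller, −1.68 ± 0.41 for MEF2C, −1.37 ± 0.18 for MEF2A and −1.05 ± 0.25 for ISL1. MEF2A held with any library left out. MEF2C was lost without ZEB2 shRNA day 2 replicate 1 (−1.44), WT day 2 replicate 1 (−1.46) or ZEB2 shRNA day 6 replicate 2 (−1.55), and ISL1 without those (−0.83, −0.85 and −0.99) or WT day 6 replicate 1 (−0.87).

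Between days 6 and 10 the steps of NKX2-5 shRNA cells exceeded those of WT cells by 2.57 ± 0.20 for HAND1, 2.51 ± 0.73 for HAND2, 1.98 ± 0.27 for MYOCD and 1.43 ± 0.27 for MEF2C. The value for HAND2 was 0.94 without NKX2-5 shRNA day 10 replicate 2 and 3.25 without replicate 1, both past the threshold, and was lost without any other library (2.29 to 2.72). The other 3 held with each library left out. The blood and endoderm markers given in the report moved with the same libraries, and their part was not tested. In ZEB2 shRNA cells the difference was 0.75 ± 0.20 for HAND1, −1.04 ± 0.26 for MYOCD and −0.90 ± 0.22 for MEF2A. Each of these 3 was lost without at least 6 of the 8 libraries in turn, with values of 0.68 to 0.80, −1.25 to −0.82 and −1.0 to −0.73 where the call was lost. For SMYD1 in NKX2-5 shRNA cells between days 2 and 6 no usable estimate was obtained, since its day 2 libraries had no reads.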

How the results depend on the processing

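Of 141 member values 95, and of 34 counts of members 10, kept their direction and their side of the threshold (counts, within 1.5 times) under every alternative, and none was reversed. The study's own thresholds add a fold limit, with an FDR looser than 5% at days 0 and 2 and stricter at days 6 and 10. With them the count fell from 2 to 1 (ZEB2 shRNA, day 0) and from 1 to 0 (ZNF503 shRNA, day 0, and NKX2-5 shRNA, day 2). At days 6 and 10 the count fell from 9 to 5 and from 8 to 4 in NKX2-5 shRNA cells and from 5 to 0 in ZEB2 shRNA cells. For steps it fell from 6 to 0 (WT, days 6 to 10), from 5 to 3 and 5 to 0 (NKX2-5 shRNA, days 2 to 6 and 6 to 10), from 7 to 0 (ZEB2 shRNA, days 6 to 10), and from 5 to 2 and 9 to 5 (ZNF503 shRNA, days 0 to 2 and 2 to 6). Between lines it fell from 2 to 1 and 6 to 0 (NKX2-5 against ZNF503 shRNA, days 2 and 6) and from 8 to 5 and 6 to 1 (NKX2-5 against ZEB2 shRNA, days 6 and 10). The count for NKX2-5 shRNA at day 2 was 0 with DESeq2, without TMM factors and in 1 fit of all libraries. That fit also gave 1 for ZEB2 shRNA at day 0, 5 in place of 8 for ZEB2 shRNA from day 0 to 2, 1 in place of 3 and 3 in place of 6 between NKX2-5 and ZEB2 shRNA (day 2) and NKX2-5 and ZNF503 shRNA (day 6), and 7 in place of 4 for the NKX2-5 shRNA step from day 6 to 10 against WT. Without TMM factors, which moved the median of all genes by up to 0.18 (log2), the ZEB2 shRNA step from day 6 to 10 differed from WT for 1 member in place of 3. The causes of these changes were not tested.

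Leaving out 1 library gave 0 to 1 (NKX2-5 shRNA, day 0), 0 to 1 (ZEB2 shRNA, day 0), 0 (ZNF503 shRNA, day 0, and NKX2-5 shRNA, day 2), 3 to 6 and 3 to 4 (ZEB2 shRNA, days 6 and 10), 3 and 2 to 6 (NKX2-5 shRNA steps to days 6 and 10), 3 to 4 (ZNF503 shRNA, days 0 to 2), 1 to 2 (ZEB2 against ZNF503 shRNA, day 2), 1 to 2 and 2 to 8 (NKX2-5 against ZEB2 shRNA, days 2 and 10), 2 to 6 (NKX2-5 against ZNF503 shRNA, day 6), and 1 to 3 and 0 to 2 for the ZEB2 shRNA steps to days 6 and 10 against WT. Where 1 library was left in a group, it was assumed to vary like the others.

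Same-numbered libraries did not pair (r of −0.128 to 0.120 at days 0 to 6, and −0.0788 at day 10), and the replicate block gave 1 in place of 2 members for ZEB2 shRNA at day 0 and no other count beyond 1.5 times. Taking the longest transcript per gene was not run; the second largest row, chosen after seeing the data, was used instead. In simulated counts false calls made up 9.92% of calls at day 10 and 7.33% at day 6, above the 5% aimed at, so calls near the threshold are the least secure.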
